A study of Mus musculus with 5 samples.

Results

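IRF4 binding sites of lipopolysaccharide-activated mouse B cells were set against the IRF8 binding sites of germinal centre (GC) B cells, and the sites that the 2 cell states shared were described by their culture time, position, sequence, signal and neighbouring genes. The sites came from chromatin immunoprecipitation followed by sequencing (ChIP-seq) of C57BL/6 mice. Naive B cells of the spleen were cultured with lipopolysaccharide (LPS, a bacterial cell wall component) at 10 µg/ml, and IRF4 (antibody M-17) was mapped after 48 h and after 72 h, as was IRF8 (antibody C-19). For the GC group, B cells were sorted on day 13 after immunisation with the hapten-carrier conjugate NP-KLH, frozen at once and sent to a service company for IRF8 ChIP-seq with antibody C-19. Each of these 5 groups was 1 library of wild-type cells. The tags behind the LPS IRF8 72 h list carry the mark of replicate 2 in its header, and whether mice or reads were pooled is not given in the sources used here. The LPS groups are cells activated in a dish, and the sorting gate of the GC cells is not given in the sources used here. Peak lists hold no expression values, so the identity of the cells could not be checked against marker genes.

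The 1573 IRF4 peaks at 48 h and the 898 at 72 h were pooled, and overlapping peaks were merged, which gave 1935 IRF4 places out of the 5590 peaks of the 5 lists. Of these places 1037 came from the 48 h list alone, 536 from both lists and 362 from the 72 h list alone. A place was called inside when at least 1 bp of it overlapped one of the 1826 GC IRF8 intervals, and outside otherwise. This put 258 places inside and 1677 outside. The factor, the cells and the peak caller all differed between the LPS IRF4 lists and the GC list, so their parts in any difference cannot be told apart. How deeply the GC library was sequenced is unknown, so a place outside the GC intervals is one where no interval was listed, not one shown to lack IRF8.

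IRF4 and IRF8 are closely related members of the interferon regulatory factor family, with high expression in the immune system. Both bind DNA weakly alone and strongly beside a partner: with SPIB or PU.1, factors of the ETS family, at composite ETS-IRF elements (EICE), and with AP-1 dimers that contain BATF at composite AP-1-IRF elements (AICE). At high concentration they also bind repeated GAAA half-sites, the interferon-stimulated response element (ISRE), which is best known from the promoters of interferon-induced genes. In B cells IRF4 is needed for class switching and plasma cell differentiation and rises with activation, while IRF8 is prominent in naive and GC B cells.

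Each place was searched for 6 motifs, on either strand and up to 100 bp from its centre, and the following stretches show what they looked like at the places the results turn on. The motifs were the EICE (GGAANNGAAA), the ISRE core (GAAANNGAAA), the AP-1 site (TGACTCA, or its reverse complement TGAGTCA), AICE1 (GAAATGACTCA or GAAATGAGTCA), AICE2 (GAAANNNNTGACTCA or GAAANNNNTGAGTCA) and a PU.1-type ETS site (GAGGAAGT). Every AICE match is also an AP-1 match, and an ETS, an EICE and an ISRE match can share bases. Each sequence below is given 5′ to 3′ on the strand named, from the mm9 (NCBIM37) genome, and the capitals mark the motif. The first 9 lay inside GC intervals, beside the genes with the highest IRF4 signal or beside antigen presentation and Toll-like receptor genes.
Grap, AP-1, chr11:61458208-61458264, plus strand: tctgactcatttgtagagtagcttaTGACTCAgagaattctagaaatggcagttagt
Enpp6, AICE1, chr8:48026820-48026880, plus strand: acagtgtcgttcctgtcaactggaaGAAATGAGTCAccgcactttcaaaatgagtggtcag
A4galt, AICE2, chr15:83080081-83080145, minus strand: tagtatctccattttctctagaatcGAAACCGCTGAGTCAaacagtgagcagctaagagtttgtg
Tlr9, AP-1, chr9:106124846-106124902, plus strand: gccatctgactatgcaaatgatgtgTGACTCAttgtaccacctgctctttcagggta
Gm9034, EICE, chr10:43538536-43538595, minus strand: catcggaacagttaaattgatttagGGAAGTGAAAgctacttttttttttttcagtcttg
Heg1, EICE, chr16:33745734-33745793, plus strand: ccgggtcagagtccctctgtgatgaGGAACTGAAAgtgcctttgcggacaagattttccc
Siglecg, EICE, chr7:50647924-50647983, plus strand: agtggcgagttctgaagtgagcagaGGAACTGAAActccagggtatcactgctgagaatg
Pax5, EICE, chr4:44684048-44684107, plus strand: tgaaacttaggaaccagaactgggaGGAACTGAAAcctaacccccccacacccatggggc
H2-DMb2, EICE, chr17:34280100-34280159, plus strand: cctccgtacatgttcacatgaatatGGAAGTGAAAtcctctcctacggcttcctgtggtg

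For comparison, 6 sequences from places outside the GC intervals follow: AP-1 sites of strong places that were lower at 72 h, an AICE1 beside the apoptosis gene Bbc3 and an EICE beside the proteasome gene Psmb9.
Ankrd55, AP-1, chr13:113077455-113077511, plus strand: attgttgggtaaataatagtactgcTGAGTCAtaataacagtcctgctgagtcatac
Hcls1, AP-1, chr16:36941381-36941437, plus strand: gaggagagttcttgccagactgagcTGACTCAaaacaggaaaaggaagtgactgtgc
Sik3, AP-1, chr9:45981186-45981242, plus strand: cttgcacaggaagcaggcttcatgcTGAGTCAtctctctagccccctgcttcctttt
Neu3, AP-1, chr7:106982412-106982468, plus strand: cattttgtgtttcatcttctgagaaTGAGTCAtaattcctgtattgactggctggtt
Bbc3, AICE1, chr7:16929233-16929293, plus strand: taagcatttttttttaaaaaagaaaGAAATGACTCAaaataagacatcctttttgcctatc
Psmb9, EICE, chr17:34317639-34317698, minus strand: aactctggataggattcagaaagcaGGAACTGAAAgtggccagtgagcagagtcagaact

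A minority of IRF4 places lay where GC B cells carried a listed IRF8 interval. The share inside was 13.3% of the 1935 places (258 places, 95% Clopper-Pearson interval 11.8 to 14.9), and seen from the other side 14.0% of the 1826 GC intervals held an IRF4 place (255 intervals, 12.4 to 15.6). The GC intervals covered 2.30 Mb, or 0.0864% of the 2655 Mb of placed chromosomes. For IRF8 in the LPS cultures, 209 of 1155 merged places lay inside a GC interval (18.1%, 15.9 to 20.4). Of the GC intervals, 103 held both an IRF4 and an IRF8 place of the LPS cultures (5.64%), 152 held IRF4 alone (8.32%) and 106 held IRF8 alone (5.81%). These shares were not tested against each other, since the lists differ in length and caller. All intervals cover counting error only.

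The overlap rule itself limits how far apart the centres of an inside place and its GC interval can lie, so the distances here are description only. The IRF4 centre lay within the bounds of the GC interval at 246 of the 258 inside places (95.3%), and the median distance between the 2 centres was 167 bp (quartiles 76.0 and 319). GC intervals with an IRF4 place were wider than those without, with a median of 1286 bp against 1125 bp. A wider interval has more room to overlap a place by 1 bp, and the part of this was not tested. Only 3 GC intervals held more than 1 IRF4 place. Gene features gave similar shares on both sides: 45.0% of inside and 48.3% of outside places were intronic, and 48.4% and 47.5% were intergenic. Places in UTRs made up 5.43% of the inside places (14 of 258) and 2.71% of the outside places (45 of 1662). On the X chromosome, none of the 13 IRF4 places lay inside, and the GC list had 15 intervals there. Beside the overall share inside of 13.3%, so few places say little about this chromosome.

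The share inside differed with culture time. Places found only at 48 h lay inside GC intervals in 8.10% of cases (84 of 1037, 95% interval 6.51 to 9.93), those found at both times in 20.5% (110 of 536, 17.2 to 24.2) and those found only at 72 h in 17.7% (64 of 362, 13.9 to 22.0). The share was thus higher for both classes that the 72 h list held. By Fisher's exact test (two-sided, adjusted over a family of 12 tests by Benjamini-Hochberg), places of both times differed from those of 48 h alone by 12.4 percentage points (odds ratio 2.93, adjusted p = 3.08e-11). By the same Fisher's exact test, those of 48 h alone differed from those of 72 h alone by -9.58 points (odds ratio 0.410, adjusted p = 5.39e-06). Places of both times and of 72 h alone did not pass (difference 2.84 points, odds ratio 1.20, Fisher's exact test, adjusted p = 0.303). Counted by peak rather than by place, 12.3% of the 48 h peaks (193 of 1573) and 19.4% of the 72 h peaks (174 of 898) lay inside. The order held when both lists were cut to their 898 highest peaks, with 9.38%, 20.8% and 18.1% for 48 h alone, both and 72 h alone. Peaks are not replicates, and with 1 library per group these tests compare the lists and not the culture times.

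**Figure D1:**
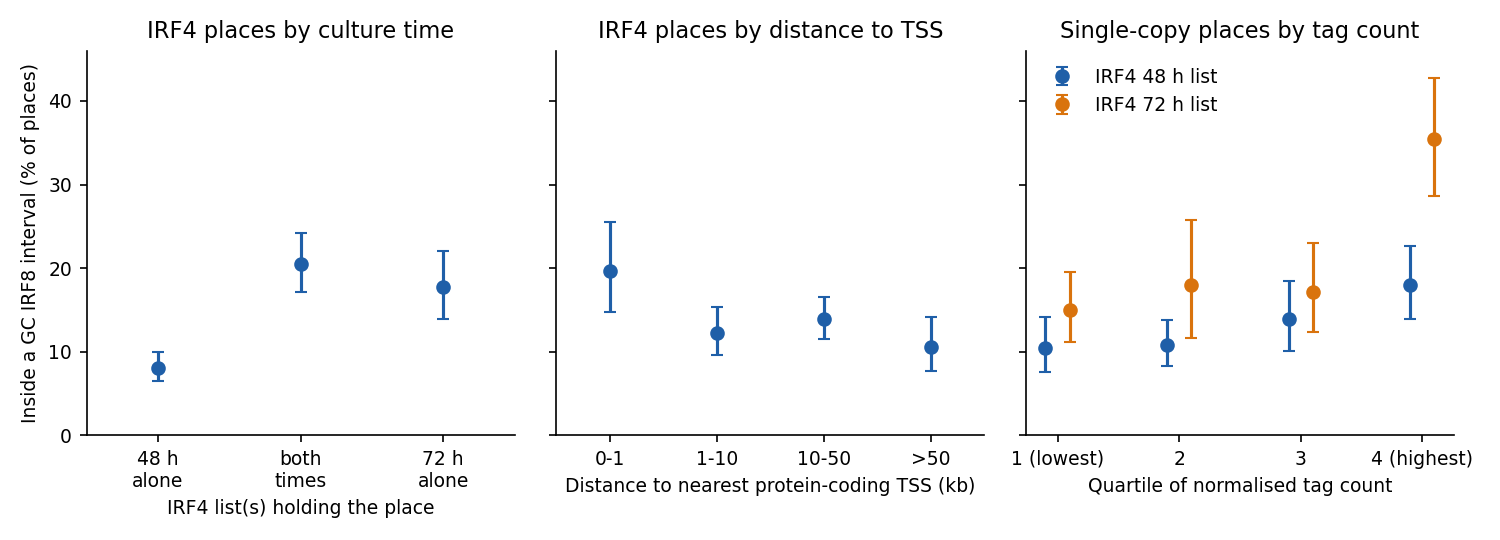
Share of IRF4 places that lay inside a GC IRF8 interval (percent, with exact 95% binomial intervals), by the IRF4 list or lists that held the place, by distance to the nearest protein-coding transcription start site (TSS), and by quartile of normalised tag count among single-copy places of each list. Places of 48 h alone sit lowest at 8.10%, and the highest quartile of the 72 h list sits highest at 35.4%.

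The median IRF4 signal was higher at the shared places, and the share inside was largest among the strongest 72 h peaks. Signal here means the normalised tag count, the authors' count of sequenced tags scaled to 10000000 per library. The libraries held 3396941 tags at 48 h and 3766015 at 72 h, of which 0.816% and 0.446% fell in peaks, so a typical peak rests on few tags. Single-copy places are those whose median 24-base word near the centre was found once in the genome. Among them, the median at 48 h was 41.2 inside (range 26.5 to 247, n = 192) and 35.3 outside (23.6 to 247, n = 1301). At 72 h it was 31.9 inside (21.2 to 112, n = 172) and 29.2 outside (18.6 to 196, n = 660). Inside and outside values overlapped over almost their whole range. The share inside went from 10.5% in the lowest quartile of the 48 h list to 18.0% in the highest. In the 72 h list the quartiles, from lowest to highest, had 15.0%, 18.0%, 17.2% and 35.4%. Tied counts made the quartiles unequal, from 128 to 306 places at 72 h. With all places kept, the highest 72 h quartile began at 42.5 rather than 39.8 tags and had 29.9% inside. Time class moved with the signal: places found at both times had more tags on either side, with medians at 48 h of 47.1 both inside and outside. At 72 h the medians of the places of both times differed, with 39.8 inside (quartiles 29.2 and 47.8) against 31.9 outside (29.2 and 39.8). Tag counts are the authors' values and were described, not tested.

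**Figure D2:**
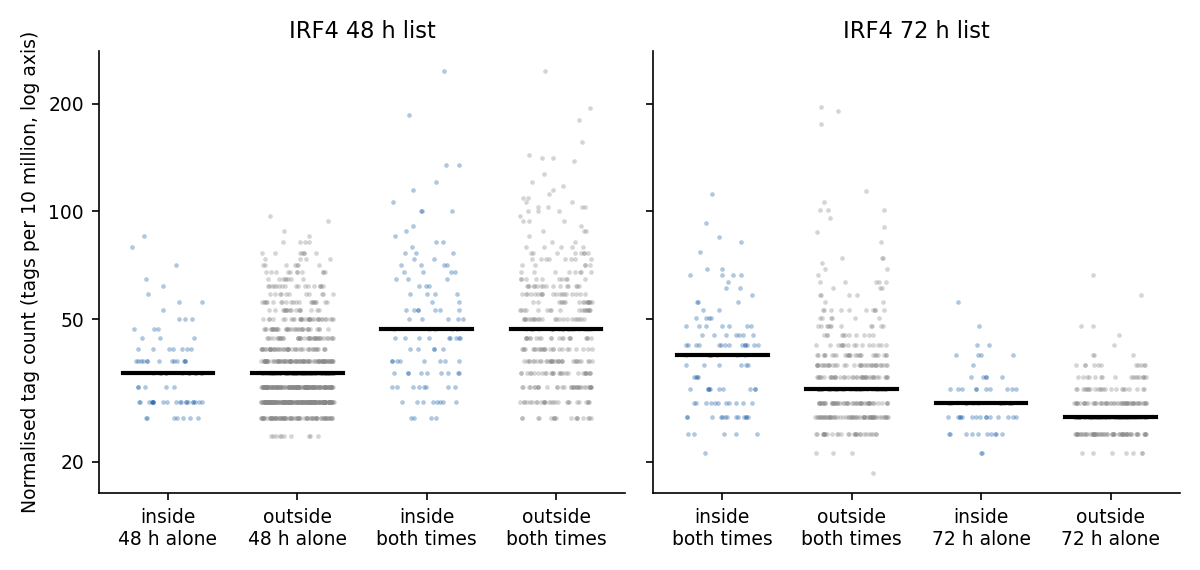
Normalised tag count (tags per 10000000, log axis) of each single-copy IRF4 place in the 48 h list (left) and the 72 h list (right), inside and outside GC IRF8 intervals and by time class. Points are places and black bars medians; the medians at 48 h are 35.3 on both sides for places of 48 h alone and 47.1 on both sides for places of both times, while those at 72 h are 39.8 inside and 31.9 outside for places of both times.

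At the 536 places in both lists, the tag count was mostly lower at 72 h, inside and outside alike. Inside, the median log2 ratio of the 72 h to the 48 h tag count was -0.31 (95% interval of the median -0.50 to -0.24, n = 110), and 84 of the 110 places were lower at 72 h. Outside, it was -0.40 (-0.45 to -0.33, n = 426), with 337 lower. A tag count at least 2-fold lower at 72 h was seen at 13.1% of all places of both times: 10 of 110 inside and 60 of 426 outside. At least 2-fold higher tag counts at 72 h were seen at 0.560% of them, 3 places, none of which lay inside. The motif went with the ratio on both sides. Places with an AP-1 site and no EICE had median log2 ratios of -0.67 inside (n = 25) and -0.69 outside (n = 93), and places with an EICE and no AP-1 site had -0.19 inside (n = 28) and -0.28 outside (n = 99). In this description, with no test, the intervals of the AP-1 medians (-0.86 to -0.37 inside, -0.82 to -0.56 outside) did not meet those of the EICE medians (-0.32 to 0.17 and -0.44 to -0.15). The share of tags in peaks was lower in the 72 h library, and its part in the general shift was not tested.

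The sequence at the centre of the shared places held ETS and GAAA-type motifs more often than that of the other IRF4 places. As a reference, the share of all complete 201-base windows of the genome that held each motif was 2.19% for the EICE, 3.32% for the ISRE core, 3.12% for AP-1, 1.20% for the ETS site, 0.0521% for AICE1 and 0.0369% for AICE2. The PU.1-type ETS site was found at 14.3% of inside and 6.80% of outside places (37 of 258 and 113 of 1662; odds ratio 2.29, Fisher's exact test, adjusted p = 2.81e-04). The ISRE core was found at 10.9% inside and 4.93% outside (28 and 82 places; odds ratio 2.35, Fisher's exact test, adjusted p = 0.00108). The EICE was found at 22.1% inside and 15.6% outside (57 and 260 places; odds ratio 1.53, Fisher's exact test, adjusted p = 0.0154). The plain AP-1 site did not pass, at 21.7% inside and 26.2% outside (56 and 436 places, difference -4.53 points, Fisher's exact test, adjusted p = 0.151). None of the 6 motifs was found at 44.6% of inside and 52.6% of outside places.

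AICE1, the element in which the GAAA half-site touches an AP-1 site, was rare among the shared places. It was found at 57 outside places (3.43%) and at 1 inside place (0.388%), the one upstream of Enpp6 printed above (odds ratio 0.110, Fisher's exact test, adjusted p = 0.00746). With 1 place inside, this call was lost among places with at least 35.3 tags, the median peak of the pooled lists (Fisher's exact test, adjusted p = 0.0635), among those with fewer, and in each time class alone (lowest adjusted p = 0.275). AICE2 in the orientation searched, with 4 bases between the half-site and the AP-1 site, was found at 2 inside and 5 outside places (Fisher's exact test, adjusted p = 0.262). This count says nothing of the same spacing with the half-site reversed, which was not searched for.

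The motif differences were not alike in the 3 time classes. All inside against outside tests within a time class were added after seeing the data. They were adjusted over 8 tests in each class and not across the classes. For the EICE, the share was 8.33% inside and 9.05% outside at places of 48 h alone, 26.4% and 25.5% at places of both times, and 32.8% and 22.9% at places of 72 h alone. No class passed for the EICE on its own (Fisher's exact test, lowest adjusted p = 0.220). Places of 48 h alone made up 56.8% of the outside places and 32.6% of the inside places, and the part of this in the pooled EICE difference was not tested. For the ISRE core, the shares were 2.38% and 4.74% at 48 h alone, 9.09% and 3.33% at both times, and 25.0% and 7.88% at 72 h alone. The ISRE difference passed at both times (adjusted p = 0.0466) and at 72 h alone (adjusted p = 0.00226, both Fisher's exact test). For the ETS site, the difference passed only among places of both times, at 20.9% inside and 5.48% outside (Fisher's exact test, adjusted p = 2.63e-05). At 72 h alone the ETS site was at 9.38% and 9.25%. Whether the classes differed from each other in these differences was not tested. Among places with at least 35.3 tags, the ISRE and EICE differences did not pass (Fisher's exact test, adjusted p = 0.184 and 0.579). Below 35.3 tags, a subset added after seeing the data, both passed. There the ISRE core was at 15.5% inside and 5.38% outside, and the EICE at 26.2% and 14.8% (Fisher's exact test, adjusted p = 0.00126 and 0.0124).

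**Figure D3:**
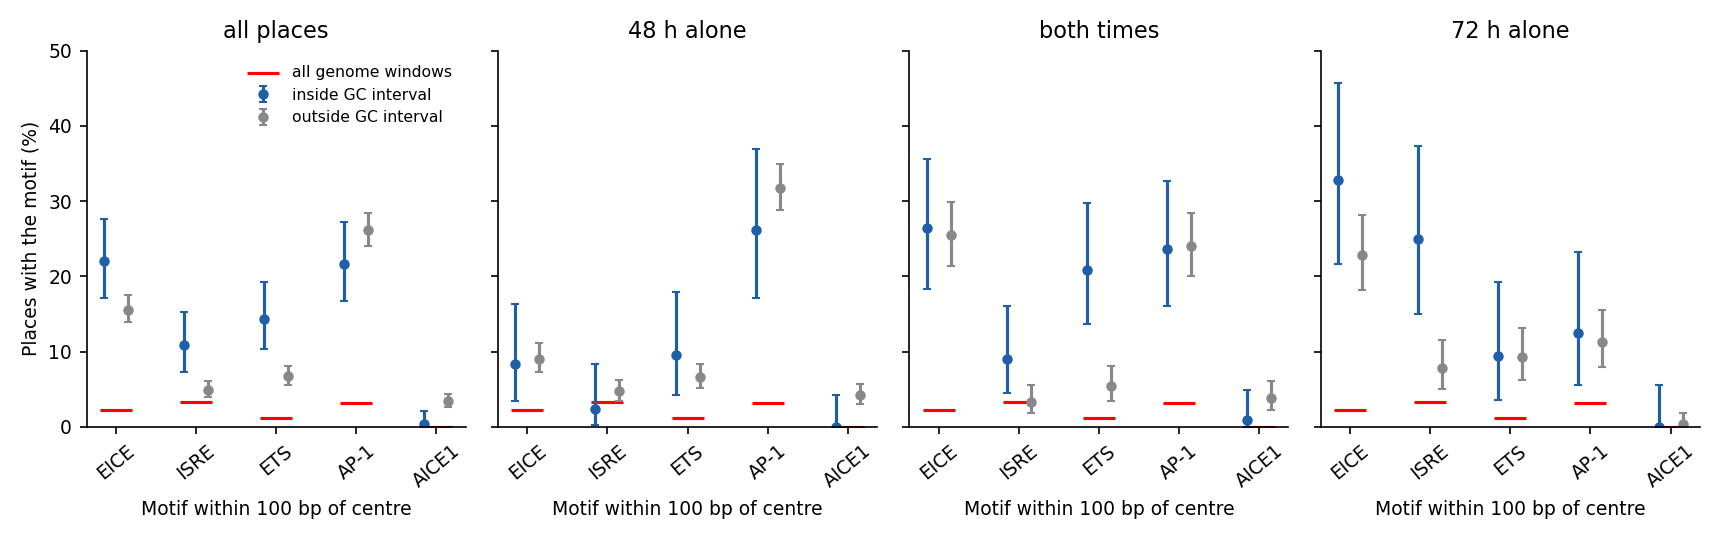
Percent of IRF4 places with each motif within 100 bp of the centre (exact 95% binomial intervals), inside and outside GC IRF8 intervals, for all places and for each time class; red bars give the share of all 201-base genome windows with the motif. The ISRE core reaches 25.0% of the inside places of 72 h alone against 7.88% outside, and the ETS site 20.9% of the inside places of both times against 5.48% outside.

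Turned around, the share inside among places with a motif can be read against that of its time class, which was 8.10% at 48 h alone, 20.5% at both times and 17.7% at 72 h alone. Of the places of both times with the ETS site, 23 of 46 lay inside (95% interval 34.9% to 65.1%), against 8 of 71 at 48 h alone (11.3%) and 6 of 33 at 72 h alone (18.2%). With the ISRE core, 10 of 24 places of both times (41.7%, 22.1 to 63.4) and 16 of 39 of 72 h alone (41.0%, 25.6 to 57.9) lay inside. At 48 h alone it was 2 of 47 (4.26%, 0.520 to 14.5), an interval that includes the share of that class. With AP-1, 22 of 324 places of 48 h alone lay inside (6.79%, 4.30 to 10.1), against 26 of 127 of both times (20.5%, 13.8 to 28.5) and 8 of 41 of 72 h alone (19.5%). The AP-1 intervals at 48 h alone and at both times include the share of their class.

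The letters between the half-sites differed too. The EICE matches inside held GGAAGTGAAA at 26 of 57 places (45.6%) and GGAACTGAAA at 17 (29.8%). Outside the order was the other way, with GGAACTGAAA at 113 of 260 places (43.5%) and GGAAGTGAAA at 58 (22.3%). GGAAGTGAAA is the word at Gm9034 and H2-DMb2 above, and GGAACTGAAA that at Heg1, Siglecg, Pax5 and Psmb9. For the ISRE core, GAAACTGAAA and GAAAGTGAAA led inside (9 and 7 of 28 places), while the A-rich GAAAAAGAAA led outside (13 of 82, 15.9%). These words were looked at after the motif shares were known and carry no test. The EICE match lay a median of 22.0 bp from the IRF4 centre inside and 23.0 bp outside, and a median of 141 bp from the GC interval's centre.

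IRF8 was also mapped in the same cultures, and its LPS peaks were found at the shared places more often. An LPS IRF8 peak overlapped 100 of 258 inside places (38.8%, 95% interval 32.8 to 45.0) and 269 of 1677 outside places (16.0%, 14.3 to 17.9), an odds ratio of 3.31 (Fisher's exact test, adjusted p = 1.63e-14). In the split by time class, added after seeing the data, the difference passed in each class. The shares were 29.8% against 7.35% at 48 h alone, 49.1% against 36.4% at both times and 32.8% against 14.8% at 72 h alone. Most of these IRF8 peaks came from the longer 72 h list, which overlapped 96 inside places, while the 48 h list overlapped 32. Even so, 158 of the 258 inside places had no LPS IRF8 peak. The EICE was found at 33.0% of the inside places with an LPS IRF8 peak (33 of 100) and at 15.2% of those without (24 of 158). The outside places had similar EICE shares, 31.2% with an LPS IRF8 peak and 12.8% without. AP-1 was found at 20.0% and 22.8% of the inside places with and without such a peak, and at 12.7% and 28.7% of the outside places. These shares were not tested. The antibody C-19 is common to the GC and LPS IRF8 libraries, and its part in this overlap was not tested.

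**Figure D4:**
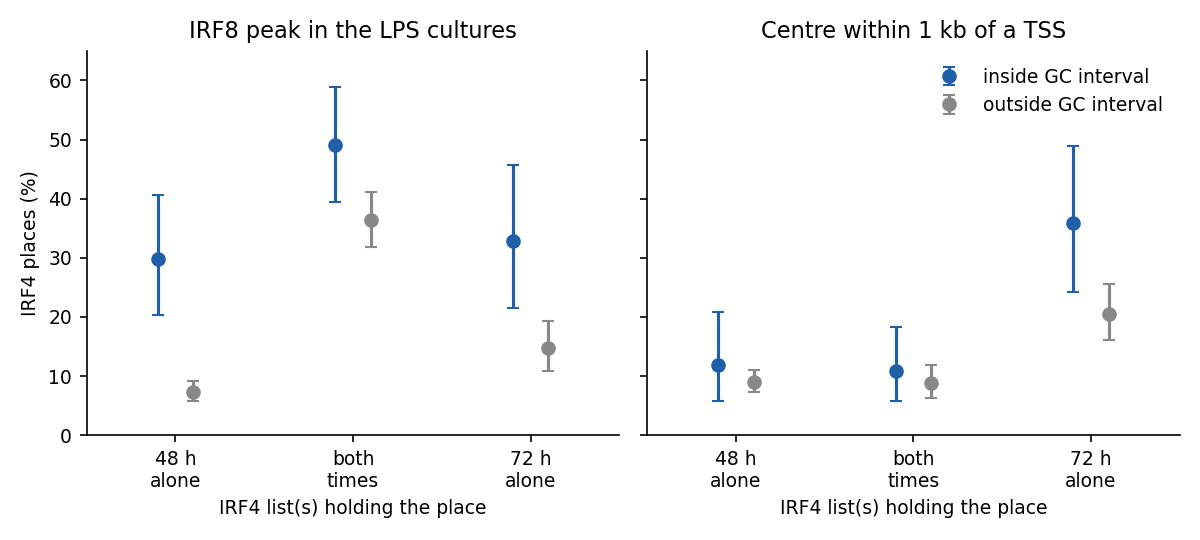
Percent of IRF4 places with an IRF8 peak in the LPS cultures (left) and with a centre within 1 kb of a transcription start site (right), inside and outside GC IRF8 intervals and by time class, with exact 95% binomial intervals. The share with LPS IRF8 is higher inside in every class, and the promoter share stands out for inside places of 72 h alone at 35.9%.

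Shared places lay at promoters more often than the other IRF4 places. A centre within 1000 bp of the start site of a protein-coding gene was found at 17.4% of inside places (45 of 258) and 11.0% of outside places (183 of 1662), an odds ratio of 1.71 (Fisher's exact test, adjusted p = 0.00746). By distance, the share inside was 19.7% within 1 kb (45 of 228), 12.2% from there to 10 kb, 13.9% from 10 to 50 kb and 10.6% beyond 50 kb (41 of 386). By time class, a split added after seeing the data, the difference was largest at places of 72 h alone. There 35.9% inside and 20.5% outside were promoter places (23 of 64 and 60 of 292, Fisher's exact test, adjusted p = 0.0362). At 48 h alone the shares were 11.9% and 9.05%, and at both times 10.9% and 8.81%, and neither passed (Fisher's exact test, adjusted p = 0.573 and 0.745). The call was also lost among places with at least 35.3 tags, at 10.3% against 8.24% (Fisher's exact test, adjusted p = 0.579). Below 35.3 tags, a subset added after seeing the data, the promoter shares were 28.2% against 14.0% (Fisher's exact test, adjusted p = 0.00126). The cutoff kept 969 of the 1573 peaks at 48 h but 282 of the 898 at 72 h, so it removed more of the 72 h list.

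From the side of the GC list the direction was the opposite. An IRF4 place was found in 45 of 482 GC promoter intervals (9.34%, 95% interval 6.89 to 12.3) and in 210 of 1344 distal ones (15.6%, 13.7 to 17.7), an odds ratio of 0.556 (Fisher's exact test, adjusted p = 0.00109). The share was highest for GC intervals 10 to 50 kb from a start site, at 20.3% (106 of 523). The GC list thus held many promoter intervals without IRF4, while the IRF4 promoter places were more often in the GC list than distal ones.

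The shared places described next are the 12 single-copy ones with the highest IRF4 tag count within 50 kb of a start site. The place 8.54 kb upstream of Grap, an adaptor protein of lymphocyte receptor signalling, had the highest count of all inside places. Its count was 247 normalised tags in the 48 h list (Poisson interval 197 to 306) and 85.0 in the 72 h list (58.1 to 120), so the 2 intervals did not overlap. Its AP-1 site is printed above, and its centre lay 11 bp from that of the GC interval. Next came the intergenic place 45.4 kb upstream of Enpp6, which encodes a choline-specific phosphodiesterase, with 186 tags (143 to 237) at 48 h and 112 (80.4 to 151) at 72 h. An EICE place 2.46 kb upstream of the predicted gene Gm9034 had 135 and 69.0 tags, and an AP-1 place 14.6 kb from AA467197 had 135 and 82.3. All 4 were lower at 72 h, although for Enpp6, Gm9034 and AA467197 the intervals of the 2 times overlapped.

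In an intron of Pax5, the factor that holds B cell identity, 12.6 kb from the start site, the EICE place had 76.5 normalised tags at 48 h, from 26 sequenced tags, and 92.9 at 72 h, from 35. It was the only one of these 12 inside places with a higher count at 72 h, within the overlap of the intervals, and it had an IRF8 peak at both times in LPS. Its GC interval spanned 3309 bp. In the first kilobase of Stat3, a transcription factor of cytokine signalling, an intronic place with none of the 6 motifs had 100 tags (69.3 to 140) at 48 h and 26.6 (12.7 to 48.8) at 72 h, a log2 ratio of -1.91. A second Stat3 intron place inside a GC interval carried 41.2 tags at 48 h alone. Upstream of Siglecg, an inhibitory co-receptor of B cells that binds sialic acid, a place with an EICE and an ETS site had 100 and 53.1 tags. The intron of A4galt, the enzyme that makes the glycolipid of the CD77 antigen, held a place with the AICE2 pattern as searched. That place had 85.4 and 50.5 tags and an LPS IRF8 peak at 48 h. The other 4 of the 12, nearest Vps8, Heg1, Atg5 and Trpm1, ranged from 88.3 to 106 tags at 48 h and were at 31.9 to 66.4 by 72 h.

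Outside the GC intervals, the 8 highest single-copy places within 50 kb of a start site differed in motif and in their change with time. Cdk8, a kinase of the Mediator complex, held an intronic place with none of the motifs, 247 tags (197 to 306) at 48 h and 191 (150 to 241) at 72 h. The places near Pak3 (180 and 175 tags) and Filip1l (127 and 106) were likewise without a motif, and their intervals at the 2 times overlapped, as did those of Cdk8. The other 5 of the 8 highest, near Ankrd55, Hcls1, Malt1, Sik3 and Neu3, each held an AP-1 site and were lower at 72 h, with log2 ratios of -2.07, -1.68, -1.34, -2.00 and -1.42. Ankrd55 went from 156 tags (117 to 204) to 37.2 (20.3 to 62.4). Hcls1, an actin regulator phosphorylated on antigen receptor signalling, went from 144 (107 to 191) to 45.1 (26.3 to 72.3). None of these 5 had Poisson intervals that overlapped between the 2 times. Such a drop was also seen without a motif: an intergenic outside place 184 kb from Gm4795, named after its values were seen, had 141 tags (104 to 187) at 48 h and 58.4 (36.6 to 88.4) at 72 h. Among the 12 inside places, those with an AP-1 site had log2 ratios of -1.54 (Grap), -1.47 (Trpm1), -0.76 (A4galt), -0.73 (Enpp6) and -0.72 (AA467197). Those without a motif had -1.91 (Stat3), -1.30 (Atg5) and -0.93 (Vps8).

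**Figure D5:**
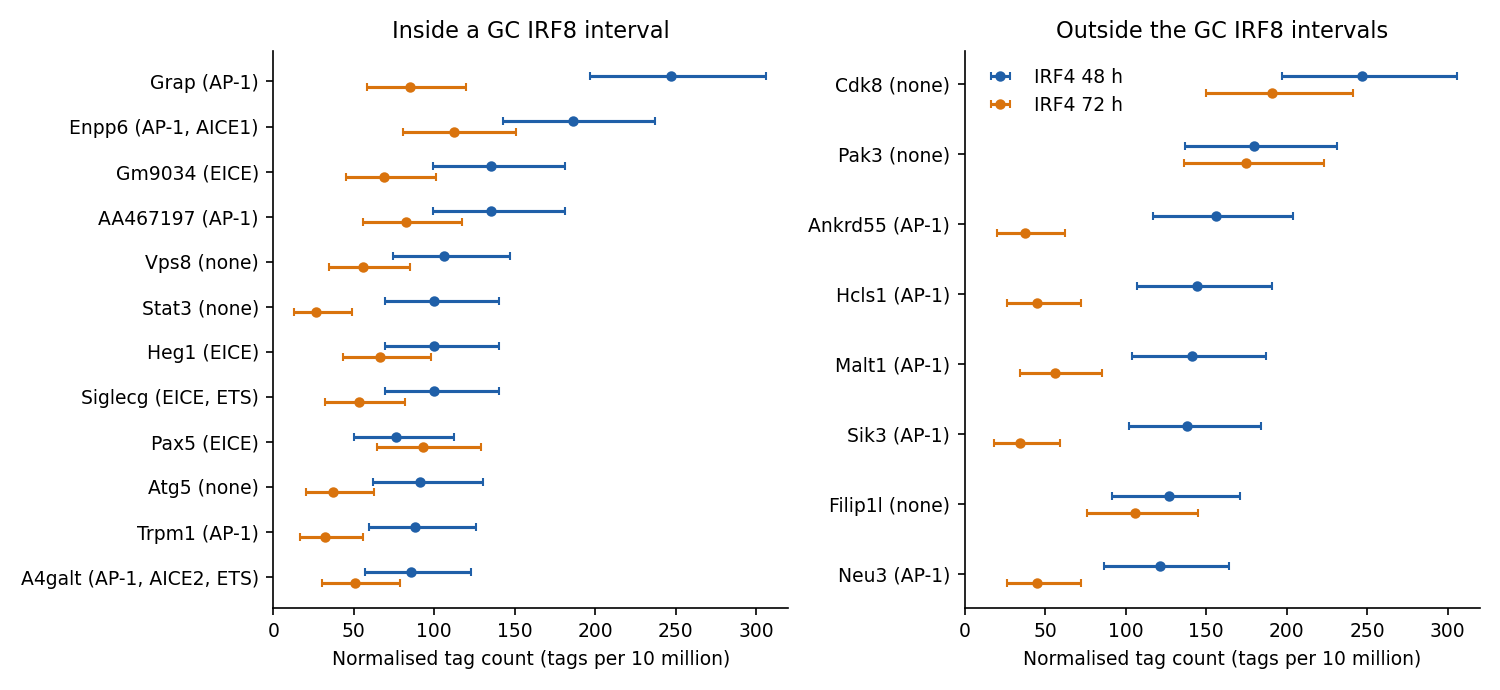
Normalised tag count (tags per 10000000) at 48 h and 72 h of the 12 highest single-copy IRF4 places within 50 kb of a start site inside GC IRF8 intervals (left) and the 8 highest outside (right), named by the nearest protein-coding gene with the motifs found in brackets; bars are exact 95% Poisson intervals of the tag number. Pax5 is the only place of the 20 with more tags at 72 h, and the 5 outside places with an AP-1 site have 34.5 to 55.8 tags at 72 h against 121 to 156 at 48 h.

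The 45 shared promoter places were mostly of low signal and 23 of them were found at 72 h alone, 12 at both times and 10 at 48 h alone. The ISRE core was found at 8 of the 45 (17.8%), against 6 of the 183 outside promoter places (3.28%). This split was looked at after the pooled ISRE share was known and carries no test. The 8 genes were the guanylate-binding proteins Gbp2, Gbp3 and Gbp7, interferon-induced GTPases that act against intracellular microbes, together with Nmi, an interferon-induced partner of STAT proteins, Parp9, an interferon-induced ADP-ribosyltransferase family member, H2-T24, a non-classical MHC class I gene, Lgals8, a galectin that senses damaged vesicles, and the ETS repressor Etv6. Their GAAA repeats follow, with the core in capitals, on the mm9 strand that reads GAAA.
Gbp2, chr3:142283560-142283585, minus strand: aagacagtGAAAGTGAAActaaaaga
Gbp3, chr3:142223491-142223516, minus strand: aaggaactGAAATCGAAAccatgctc
Gbp7, chr3:142193239-142193264, minus strand: ggagaactGAAACTGAAActgcacac
Nmi, chr2:51828526-51828551, minus strand: taataaccGAAAGTGAAAgtaaggcc
Parp9, chr16:35939050-35939075, minus strand: ggggaatcGAAACTGAAActttgcct
H2-T24, chr17:36157855-36157880, plus strand: gggaagtcGAAACCGAAActgtagca
Lgals8, chr13:12552915-12552940, plus strand: ccaagccaGAAAATGAAActagagtt
Etv6, chr6:133985717-133985742, minus strand: ggaagagaGAAACTGAAAggcagaac

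At 7 of these 8 promoters the IRF4 peak was in the 72 h list alone, with 26.6 to 39.8 tags, and only the Gbp2 peak was in the 48 h list alone, with 29.4 tags (14.1 to 54.1). Gbp3 had 39.8 tags (22.3 to 65.7), Gbp7 29.2 (14.6 to 52.3), Nmi 29.2 (14.6 to 52.3) and Parp9 26.6 (12.7 to 48.8). All of these intervals overlap, so no order can be read among them. An LPS IRF8 peak of the 72 h list lay at Gbp3, Gbp7, Nmi, Parp9 and Lgals8, and none at Gbp2, H2-T24 or Etv6. The distance from the IRF4 centre to the start site was 7 bp at Gbp2, 94 bp at Gbp3, 27 bp at Gbp7, 9 bp at Nmi and 1 bp at Parp9. The Parp9 place lies in the UTR shared by Parp9 and Dtx3l. Oas1c, of the oligoadenylate synthetase family, and Trim56, an antiviral ubiquitin ligase, also had shared promoter places at 72 h alone, without an ISRE core and with 23.9 tags each (10.9 to 45.4). These promoter genes were picked after their values were seen.

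By nearest gene within 50 kb, 206 of 22238 protein-coding genes had an inside place (0.926%), 1134 had an outside place (5.10%) and 1298 had either (5.84%). Of the 206 genes with an inside place, 42 also had an outside place, beside 5.10% of all protein-coding genes. Of the 1092 genes with outside places alone, 170 had a GC interval elsewhere near them, beside 1333 of all 22238 protein-coding genes with a GC interval. The 13 gene lists below are described by counts and not tested; they were drawn up for B cell biology, so a share above these backgrounds is not particular to a list.

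B lineage transcription factors had the most IRF4 places of the lists: 3 of 23 genes had an inside place (Pax5, Bach2 and Etv6) and 13 an outside place. Bach2, a repressor that restrains plasma cell differentiation, had an inside place 3.09 kb from a start site with 38.3 tags at 48 h alone (20.4 to 65.4) and 5 outside places. A further place in a Bach2 intron, 58.6 kb from the nearest start site and so beyond the limit for the lists, lay inside a GC interval with an EICE, 121 tags at 48 h and 66.4 at 72 h. Outside places led by Pou2f2, an octamer-binding factor, had 109 tags (76.7 to 150) at 48 h and 39.8 (22.3 to 65.7) at 72 h. Foxp1, a forkhead factor of B cell development, had 103 and 42.5 tags with an AP-1 site.

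In the IRF family, 1 of 9 genes had an inside place and 2 an outside place. The inside place was 10.8 kb upstream of Irf8 itself, in an intron of the predicted gene Gm20388, with 41.2 tags at 48 h alone (22.5 to 69.1) and none of the motifs. Irf4 had 2 outside places 16.4 and 20.8 kb upstream, with 53.0 and 29.4 tags at 48 h alone, and Irf5 had 2 outside places with up to 38.3 tags. Plasma cell genes had places outside only: 0 of 16 genes had an inside place and 6 an outside one. These were Irf4, Prdm1, which encodes the plasma cell regulator Blimp-1, Ell2, an elongation factor for secreted antibody, Slamf7, Zbtb20 and Tnfrsf13b. Prdm1 had an intronic place with an ISRE core and 44.2 tags at 48 h alone (24.7 to 72.8), and Ell2 an intronic place with an EICE and 47.8 tags at 72 h alone (28.3 to 75.5). With 16 genes and a background of 0.926%, a count of 0 inside is near what the whole annotation showed.

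In MHC class II presentation 1 of 12 genes had an inside place, H2-DMb2, a chain of the chaperone that loads peptides. Its promoter place, 186 bp upstream of the start site, held the EICE printed above, 35.3 tags at 48 h (18.3 to 61.7), 42.5 at 72 h (24.3 to 69.0) and an LPS IRF8 peak at both times. H2-Ob, a chain of the protein that restrains this chaperone, had an outside place with 29.4 tags. In MHC class I processing, 1 of 12 genes had an inside place, the promoter of the heavy chain gene H2-K1 (26.6 tags at 72 h alone), and 1 an outside place, Psmb9 (53.0 and 39.8 tags), a subunit of the immunoproteasome. MHC class I genes are close copies of each other, so tags at H2-K1 and H2-T24 could be split between copies, although the sequence at both centres was single-copy. In the interferon-stimulated antiviral list, 1 of 28 genes had an inside place (Parp9).

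B cell receptor signalling had 2 of 22 genes with inside places, Grap and Blnk, and 8 with outside places, led by Malt1 (141 and 55.8 tags). Blnk, the central adaptor below the receptor, had 53.0 tags (31.4 to 83.7) at 48 h and 37.2 (20.3 to 62.4) at 72 h at a place 1.27 kb upstream. Of 21 surface and co-receptor genes, 3 had inside places: Siglecg, the activation marker Cd83 (34.5 tags at 72 h, AP-1 site, LPS IRF8 at 48 h) and the ectoenzyme Cd38 (38.3 and 31.9 tags). Of 21 GC and activation genes, 1 had an inside place and 4 an outside place. The inside one was Icosl, the ligand by which B cells engage T follicular helper cells, with 38.3 tags (20.4 to 65.4) at 48 h and 55.8 (34.5 to 85.2) at 72 h, an ETS site and an LPS IRF8 peak at both times. The outside ones were Il21r, Ccr7, Cd69 and Cxcr4.

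Among Toll-like receptor and NF-kappaB genes, 1 of 26 had an inside place and 4 an outside place. The inside place was at the start site of Tlr9, the receptor for unmethylated DNA, with 58.9 tags (36.0 to 90.9) at 48 h and 23.9 (10.9 to 45.4) at 72 h, an AP-1 and an ETS site. The place at the start site of Tlr4, the receptor for LPS, lay outside, with 41.2 and 26.6 tags. Apoptosis genes had 2 of 20 inside, Mcl1 (35.3 tags at 48 h alone) and Casp8 (26.5 and 26.6 tags), and 4 outside, led by the AICE1 place nearest Bbc3, in an intron of Sae1, with 53.0 tags at 48 h alone (31.4 to 83.7). The AP-1 and BATF family had 0 of 14 inside and 2 outside (Batf and Batf3), and Myc and cell cycle genes 0 of 22 inside and 4 outside, Cdk8, Ccnd3, Myc and Cdk6. The Myc place, 12.3 kb downstream of the start site, had an EICE, 64.8 tags at 48 h alone (40.6 to 98.1) and LPS IRF8 peaks at both times, with no GC interval.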

How the data were processed

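The authors made the 4 LPS peak lists with HOMER findPeaks in factor mode, per the file headers: peaks of 500 bp, a false discovery rate of 0.001, no more than 1 tag at any position, and a fold of at least 4 over the local 10000 bp. The headers name no input library. The GC intervals, BED positions without score, were called with MACS per the design text; which version, control and threshold served is not stated in the sources used here. BWA and Bowtie2 stand in the submitters' processing notes, while the design text gives other words, so the aligner is unclear. Per the labels, the build was mm9. In the deposited lists the signal is the normalised tag count, which the authors scaled to a library of 10000000 tags. The deposited score, fold ratios, p-values and focus ratio (a fraction) were not used.

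Analysis used Python 3.11.15, numpy 2.4.6, scipy 1.17.1, pysam 0.24.0 and matplotlib 3.10.9. Overlapping IRF4 peaks were merged, and the centre was that of the higher peak. Start sites were those of protein-coding genes of GENCODE M1. Places were single-copy when the median 24-base word within 100 bp of the centre was found once in the genome; 85 placed places were multi-copy and 15 lay on unplaced sequence, without annotation or motifs. Dividing out the scaling gave whole tags within 0.05 for 100% of peaks, which gave the exact Poisson intervals at 95%; shares have Clopper-Pearson intervals. Shares were compared by Fisher's exact test, two-sided, with Benjamini-Hochberg adjustment over 12 tests (8 within a time class or a subset by tags added after seeing the data) and a threshold of 0.05. Counts of places are not independent replicates. The tests were checked on simulated data.

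The named genes were the 12 inside and 8 outside single-copy places with the highest tag count within 50000 bp of a start site, plus up to 3 genes inside and 2 outside per gene list; others were named after their values were seen. A gene that this rule names is not reported here. The set of sites, the gene lists and the tests were chosen with earlier results of these data known.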

Additional observations from a re-analysis of the deposited data

How the results depend on the processing

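Of 119 alternative values for 17 results, 95 were counted as unchanged. For tested differences this meant the same direction and side of the threshold. For the share of places inside and the median ratios it meant a value within the main 95% interval. Gene counts had only to stay within a set fold range: 148 genes inside and 836 outside within 20000 bp (from 206 and 1134) counted as unchanged. All differences below are inside minus outside, in percentage points. With only peaks at or above the pooled median of 35.3 tags, fewer places remained, and the promoter difference became 2.09 (from 6.43), EICE 2.88 (from 6.45), ISRE 3.22 (from 5.92) and AICE1 -3.30 (from -3.04), none past the threshold; the share of places inside was 15.1%, and the outside log2 ratio of 72 h to 48 h was -0.25. With GC intervals cut to 500 bp the share inside was 11.8%. With 250 bp windows the AP-1 difference passed, at -7.02. The remaining alternatives were chosen after seeing the data. Within places of 48 h alone the values were 2.85 for promoters, 2.89 for ETS and -4.21 for AICE1, none past the threshold, and -0.719 for EICE, -2.36 for ISRE and -0.211 for AICE2, with the direction reversed. Within places of both times they were 2.10 for promoters, 0.887 for EICE and -2.90 for AICE1. Within places of 72 h alone they were 9.87 for EICE, 0.128 for ETS, -0.342 for AICE1 and, reversed, 1.20 for AP-1. Among places below 35.3 tags they were -9.50 for AP-1, past the threshold, and 2.80 for ETS and -2.88 for AICE1, not past it. Subsets hold fewer places; beyond this, the cause of each change was not tested. No paired analysis was possible because each group held 1 library. Depth limits single places: a place with 10 tags has a Poisson interval of 14.1 to 54.1 normalised tags at 48 h.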

Other observations

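Genes with more than 1 inside place were few. There were 11 of them (Coil, Gm4968, Iglc2, Ly6e, Morc3, Pde7a, Psd2, Sec24a, Stat3, Tmem116 and Vps8), each with 2. The sequence at the Coil promoter place was present in a median of 16.5 copies, so its reads could come from other copies. Near Iglc2, a constant segment of the immunoglobulin lambda light chain, the places lay 47.7 and 20.9 kb downstream. The nearer one was found at 72 h alone with an EICE and 39.8 tags; the other had 29.4 tags at 48 h and 31.9 at 72 h, and its sequence was present in 2 copies, so its reads could come from either copy. Both had an LPS IRF8 peak at 72 h. Near Ly6e, an interferon-induced surface protein, both inside places were found at 72 h alone, 34.2 and 24.4 kb upstream, each with an EICE, and carried 31.9 and 39.8 tags without an LPS IRF8 peak.

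Repeated sequence was rare among the shared places. Of the inside places, 3 of 258 were multi-copy or unplaced (1.16%, 95% interval 0.240 to 3.36), against 97 of 1677 outside (5.78%, 4.72 to 7.01). The GC list held no interval on unplaced sequence, so the 15 unplaced IRF4 places could only count as outside. That part of the difference was fixed by the lists.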
